A study of Mus musculus with 12 samples.

Results

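Transcripts of 7 genes of nitric oxide, arginine and itaconate metabolism were followed in bone marrow-derived dendritic cells (BMDCs) with and without the integrin chain CD18. The genes are Nos2, Gch1, Slc7a2, Ass1, Arg1, Arg2 and Acod1. They were picked by gene name, 7 of the 41709 genes counted, and their total gene reads were compared across 4 groups of 3 libraries each. All mice were homozygous for a floxed exon 3 of the CD18 gene Itgb2, from which the neo cassette had been removed by Flp recombinase. The CD18fl/fl group carried no Cre, and in the CD18CD11c cKO group Cre was driven by the CD11c promoter. Bone marrow cells were cultured with GM-CSF for 10 days and left untreated or exposed to LPS at 100 ng/mL, for 24 h by the library labels and overnight by the study's methods, and MHCII-positive cells were then isolated with magnetic beads. The deletion depends on CD11c promoter activity in a mixed culture and need not reach every cell, and the age and sex of the mice are not given in the sources used here. Dendritic cell markers were above the detection floor in every library, 10 of 10, among them H2-Ab1, Cd74 and Itgax. Macrophage markers were above it in every library as well, 10 of 10, so these counts do not separate the cell types. Itgb2 itself reached 382, 420 and 379 CPM (counts normalised to library size with TMM factors) in untreated CD18fl/fl libraries and 120, 163 and 190 CPM in untreated CD18CD11c cKO libraries. After LPS it reached 167, 171 and 266 CPM against 114, 89.7 and 119 CPM. In both states the CD18CD11c cKO libraries were lower without overlap and far from 0, and transcripts that lack exon 3 are included in these counts.

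Nos2 encodes inducible nitric oxide synthase, which turns arginine into citrulline and nitric oxide. The enzyme needs the cofactor tetrahydrobiopterin, whose synthesis starts with GTP cyclohydrolase, the product of Gch1. Slc7a2 encodes the cationic amino acid transporter CAT2, which brings arginine into the cell, and argininosuccinate synthase, the product of Ass1, begins the rebuilding of arginine from citrulline. Arginase 1 (Arg1, in the cytosol) and arginase 2 (Arg2, in mitochondria) draw on the same arginine and yield ornithine, the precursor of polyamines and proline. Acod1 encodes the mitochondrial enzyme that makes itaconate from cis-aconitate of the TCA cycle. In myeloid cells LPS acts through TLR4, NF-κB and interferon signaling, and Nos2 and Acod1 are widely used as marks of that response, whereas Arg1 is best known from cells exposed to IL-4.

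Of the 7 genes, 3 had an entry in the RefSeq promoter table used, Acod1, Gch1 and Ass1. Transcripts of Acod1 and Gch1 both increased with LPS (values below). The sequences upstream of their RefSeq start sites are shown 5′ to 3′ on the strand of the gene. Sequences were placed in GRCm39 by an exact match. They begin 250 bases before the RefSeq start site and end at the last base before it for Gch1 and 6 bases before it for Acod1. Capitals mark matches on either strand to any of 9 motifs: the NF-κB consensus of 10 letters, ISRE (GAAA and GAAA with 2 bases between), GAS (TTCNNNGAA), AP-1 (TGANTCA), C/EBP (TTGCNNAA), the TATA box (TATAAA), the E-box (CACGTG), the CCAAT box (CCAAT) and the GC box (GGGCGG).
Acod1, chr14:103284198-103284442, plus strand: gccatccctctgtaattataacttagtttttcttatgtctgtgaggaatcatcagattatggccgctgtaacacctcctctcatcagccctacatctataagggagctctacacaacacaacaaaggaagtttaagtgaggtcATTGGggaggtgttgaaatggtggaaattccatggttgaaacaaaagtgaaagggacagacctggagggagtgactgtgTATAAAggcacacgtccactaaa
Gch1, chr14:47426871-47427120, minus strand: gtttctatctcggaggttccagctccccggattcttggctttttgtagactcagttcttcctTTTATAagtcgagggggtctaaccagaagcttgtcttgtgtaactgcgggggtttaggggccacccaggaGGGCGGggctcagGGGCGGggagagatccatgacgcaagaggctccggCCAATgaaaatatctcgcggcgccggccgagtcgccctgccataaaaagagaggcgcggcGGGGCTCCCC

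In Acod1, a TATA box lay 28 to 23 bases before the RefSeq start, and a CCAAT box on the opposite strand 107 to 103 bases before it. The gene as counted here begins earlier, at 103284413, so the end of the Acod1 sequence shown, with the TATA box, lies inside it. In Gch1, the final 10 bases before the start matched the NF-κB consensus, and a CCAAT box and 2 GC boxes lay further upstream, with a TATA motif on the opposite strand 188 to 183 bases before the start. The Ass1 window held a GC box and an E-box. Of the 32851 promoter windows in the table, 12.4% held the TATA motif, 33.8% the CCAAT box, 32.7% the GC box, 7.25% the NF-κB consensus and 6.02% the E-box, so each match is common by itself. The ISRE, GAS, AP-1 and C/EBP letters were absent from the 3 windows and were held by 2.98%, 7.02%, 6.75% and 9.56% of all windows. G and C made up 44.4% of the Acod1 window, 59.2% of that of Gch1 and 75.6% of that of Ass1, against a median of 52.4% over all windows.

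Libraries held 29689149 to 34037178 total gene reads, of which 95.1% to 96.2% mapped to a single place, and 3 reads, the floor used here, corresponded to 0.0752 to 0.135 CPM. Replicate 3 stood apart in every group. A principal component with 25.2% of the variance of log2 CPM over all genes tested separated the 4 libraries of replicate 3 from the other 8. The first component, with 37.1%, set untreated from LPS libraries within each replicate but also set replicate 3 apart. On it, LPS libraries of replicate 3 were at -12.9 and 2.14 and the other LPS libraries at 88.2 to 99.9. Untreated replicate 3 was at -95.8 and -96.5, the other untreated libraries at -58.1 to -35.4. Replicate 3 differed in cell type markers as well. Dendritic cell markers summed to 12760 to 16920 CPM in replicate 3 and to 19640 to 33490 CPM in replicates 1 and 2, without overlap. Neutrophil markers summed to 10.7 to 22.1 CPM there and to 44.4 to 1332 CPM in replicates 1 and 2, B cell markers to 0.636 to 2.54 against 8.64 to 138 CPM, mast cell and basophil markers to 41.0 to 164 against 14.2 to 44.3 CPM, and markers of alternatively activated macrophages to 2964 to 20500 against 1580 to 2699 CPM. The top neutrophil value, 1332 CPM, belonged to CD18fl/fl untreated replicate 1. Genes of the alternatively activated macrophage list moved in opposite directions with LPS, so their sum does not stand for each of them. In CD18fl/fl cells with the block, log2 fold changes were -3.09 for Mgl2 and -3.42 for Clec10a but 3.32 for Ccl17 and 1.80 for Ccl22. Fewer cells of a type and less RNA per cell cannot be told apart in such bulk libraries. Same-numbered libraries deviated from their group means together. Replicate 1 of a group and replicate 2 of another also did so (correlations of 0.154 to 0.334), and replicate 3 went against both (-0.571 to -0.321). These correlations set replicate 3 apart and do not by themselves show that the number marks pairs. Each comparison was fitted by edgeR's quasi-likelihood test ignoring the replicate number and again with that number as a block. The block allows 1 shift per replicate and not an LPS effect that differs between replicates. P-values were adjusted by Benjamini-Hochberg across every gene tested. Results from replicates 1 and 2 alone, a choice made after seeing the data, are given where calls differ.

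LPS raised 5 of the 7 transcripts in CD18fl/fl BMDCs when same-numbered libraries were compared. Nos2, Acod1, Slc7a2, Arg2 and Gch1 passed the threshold (adjusted p under 0.05) with the replicate block, with log2 fold changes of 1.62 to 8.99, where 6.33% of the 12744 genes tested were called higher. Without the block, Acod1 alone passed, and 2.06% of the genes were called higher. Each of these 5 genes had all LPS libraries above all untreated libraries in both genotypes, an order found for 13.6% of genes in CD18fl/fl and 14.8% in CD18CD11c cKO cells. In CD18CD11c cKO cells, Nos2, Acod1, Slc7a2 and Gch1 passed with the block (10.2% of 12687 genes called higher) and none of the 7 without it (2.23%). Leaving out the untreated replicate 3 alone brought Nos2, Slc7a2 and Gch1 past the threshold without the block in CD18fl/fl cells (edgeR adjusted p = 0.0184, 0.0357 and 0.0188). That fit called 252 of 13310 genes higher. Leaving out the LPS-treated replicate 3 brought Arg2 and Ass1 past the threshold (edgeR adjusted p = 0.0262 and 0.0312), where 1613 of 13206 genes were called higher. Without the untreated replicate 3 of CD18CD11c cKO cells, Nos2, Slc7a2, Acod1 and Gch1 passed by edgeR there as well (adjusted p = 0.0185, 0.0469, 0.00441 and 0.0164). In that fit 197 of 13256 genes were called higher. Replicates 1 and 2 alone gave 6 of 7 higher in CD18fl/fl cells, where 23.2% of genes were called higher, and 4 of 7 in CD18CD11c cKO cells, where 7.93% were. The median log2 fold change of the 7 genes with the block was 2.05 in CD18fl/fl and 1.74 in CD18CD11c cKO cells, against -0.03 and -0.01 for all genes tested.

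**Figure D1:**
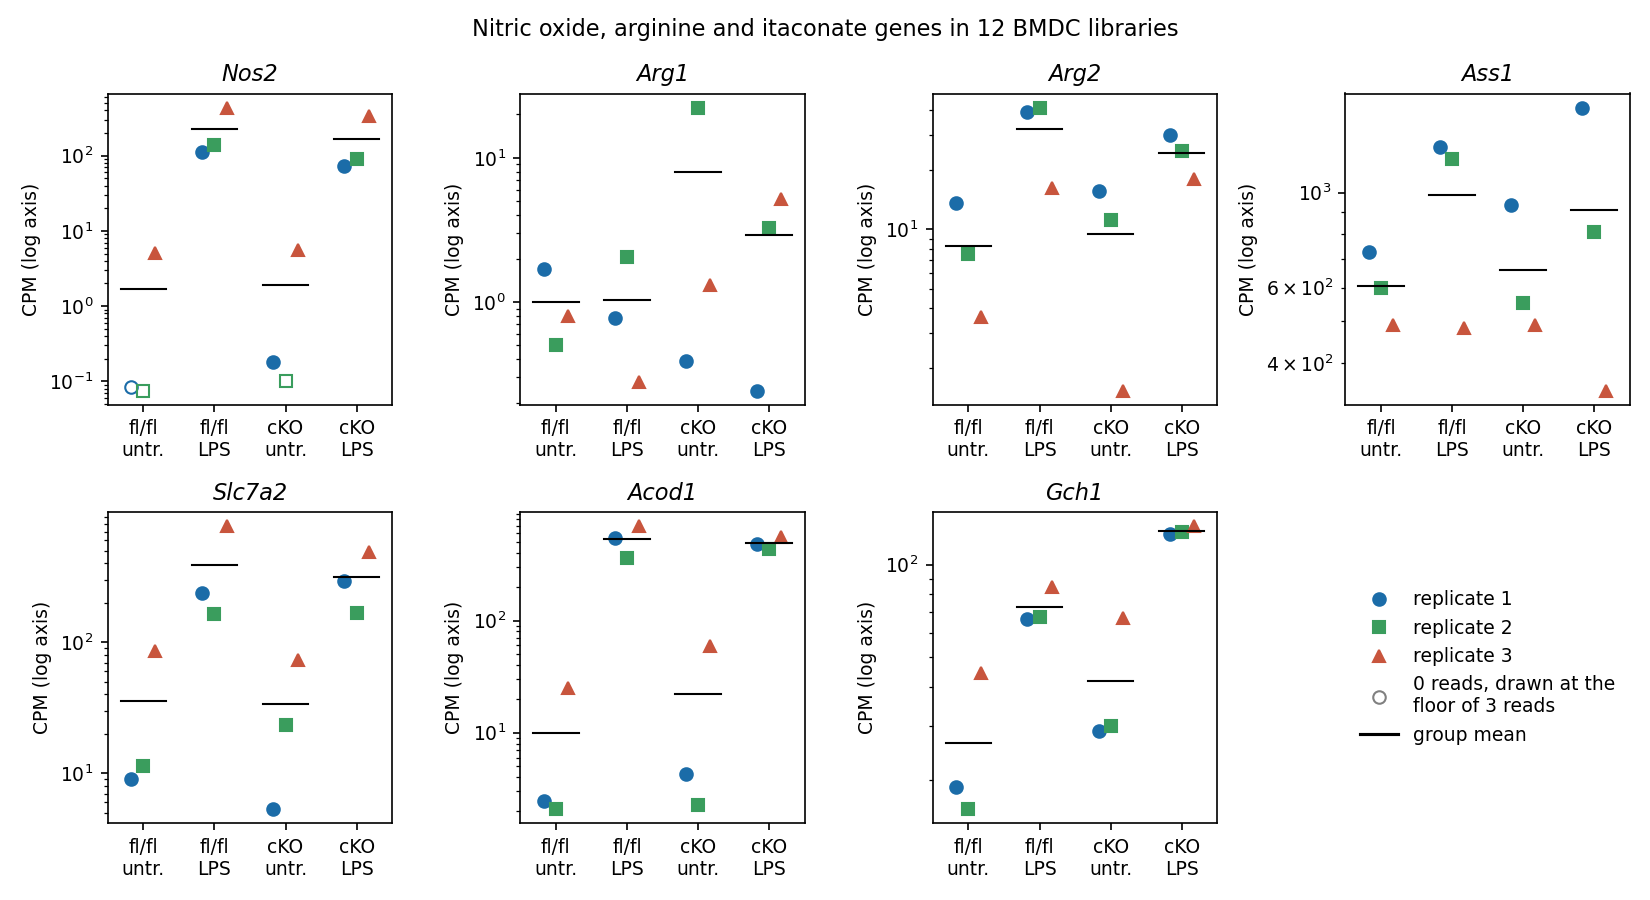
CPM on a log axis for each of the 7 genes in the 12 libraries, with replicates by colour and shape, group means as black lines, open symbols for libraries with 0 reads drawn at the floor of 3 reads, and cKO for CD18CD11c cKO. Nos2, Slc7a2, Acod1 and Gch1 are highest in replicate 3 of every group, Ass1 is lowest there, and Arg1 stands out in untreated CD18CD11c cKO replicate 2 at 22.3 CPM.

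Nos2 (ENSMUSG00000020826, GRCm39 chromosome 11, 78811613 to 78851080, plus strand) went from near silence to one of the more abundant of the 7 transcripts. In untreated CD18fl/fl cells, replicates 1, 2 and 3 held 0, 0 and 190 reads (0, 0 and 5.08 CPM), and in untreated CD18CD11c cKO cells they held 5, 0 and 190 reads (0.178, 0 and 5.49 CPM). After LPS the values were 111, 138 and 436 CPM in CD18fl/fl and 73.9, 90.7 and 338 CPM in CD18CD11c cKO cells. Before LPS, Nos2 was thus above the floor in replicate 3 of both genotypes and, at 5 reads, in CD18CD11c cKO replicate 1, and after LPS replicate 3 was again the highest.

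Within same-numbered libraries, Nos2 was at least 1328-fold, at least 1838-fold and 85.9-fold higher after LPS in CD18fl/fl cells, the bounds being set against 3 reads in the library without any. In CD18CD11c cKO cells the folds were 415 (counting interval 178 to 1280), at least 906 and 61.4. The fitted log2 fold change in CD18fl/fl cells was 7.09 (SE 2.08, edgeR adjusted p = 0.106) without the block and 8.99 (SE 1.35, adjusted p = 0.0138) with it. The values in CD18CD11c cKO cells were 6.43 (SE 1.75, edgeR adjusted p = 0.0891) and 7.54 (SE 0.84, adjusted p = 0.00264).

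Gch1 (ENSMUSG00000037580, chromosome 14, 47391352 to 47426870, minus strand) was present in every library and moved over a far smaller range. Untreated CD18fl/fl libraries had 18.9, 16.1 and 44.3 CPM and LPS-treated ones 66.5, 67.8 and 84.8 CPM. Untreated CD18CD11c cKO libraries had 28.7, 29.9 and 67.2 CPM and LPS-treated ones 126, 128 and 133 CPM. The LPS libraries of a genotype lay close together, and replicate 3 was the highest of each group. With LPS, the log2 fold change in CD18fl/fl cells was 1.48 (SE 0.41, edgeR adjusted p = 0.0966) without and 1.62 (SE 0.29, adjusted p = 0.0219) with the block. For CD18CD11c cKO cells it was 1.57 (SE 0.38, edgeR adjusted p = 0.0656) and 1.69 (SE 0.26, adjusted p = 0.00647).

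Slc7a2 (ENSMUSG00000031596, chromosome 8, 41315433 to 41375345, plus strand) resembled Nos2 in being highest in replicate 3 of every group. Untreated CD18fl/fl libraries had 9.10, 11.4 and 86.3 CPM, and LPS-treated ones 239, 163 and 770 CPM. Untreated CD18CD11c cKO libraries had 5.34, 23.2 and 73.6 CPM, and LPS-treated ones 292, 167 and 487 CPM. Replicate 3 exceeded the other libraries of its group throughout, and no untreated library reached the lowest LPS library. The same-numbered folds were 26.3, 14.3 and 8.92 in CD18fl/fl and 54.7, 7.17 and 6.61 in CD18CD11c cKO cells. With the block, the log2 fold change was 3.90 (SE 0.37, edgeR adjusted p = 0.00521) in CD18fl/fl cells and 3.63 (SE 0.62, adjusted p = 0.00961) in CD18CD11c cKO cells. Without it, the values were 3.47 (adjusted p = 0.115) and 3.17 (adjusted p = 0.104) by edgeR.

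Ass1 (ENSMUSG00000076441, chromosome 2, 31360219 to 31410684, plus strand) was abundant before any stimulus. Untreated CD18fl/fl libraries had 728, 600.0 and 491 CPM, and LPS-treated ones 1283, 1199 and 482 CPM. Untreated CD18CD11c cKO libraries had 938, 552 and 489 CPM, and LPS-treated ones 1582, 810 and 344 CPM. LPS libraries were thus above their same-numbered untreated libraries in replicates 1 and 2 and below them in replicate 3, in both genotypes, with folds of 1.76, 2.00 and 0.982 in CD18fl/fl and 1.69, 1.47 and 0.704 in CD18CD11c cKO cells. Over the 3 replicates, the log2 fold change was 0.71 (SE 0.41, edgeR adjusted p = 0.336) in CD18fl/fl and 0.40 (SE 0.52, adjusted p = 0.713) in CD18CD11c cKO cells. Replicates 1 and 2 alone gave 0.90 (SE 0.18, adjusted p = 0.00172) in CD18fl/fl and 0.58 (SE 0.39, adjusted p = 0.35) in CD18CD11c cKO cells by edgeR.

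Arg2 (ENSMUSG00000021125, chromosome 12, 79177551 to 79203075, plus strand) was, by its mean level per kilobase of exon, the more abundant arginase in all 4 groups. By library, untreated CD18CD11c cKO replicate 2 was the exception, with Arg1 at 15.1 and Arg2 at 7.8 CPM per kilobase. Untreated CD18fl/fl libraries had 13.7, 7.52 and 3.61 CPM, and LPS-treated ones 39.2, 41.3 and 16.3 CPM. Untreated CD18CD11c cKO libraries had 15.7, 11.1 and 1.53 CPM, and LPS-treated ones 30.2, 24.97 and 18.1 CPM. In contrast to Nos2, replicate 3 was the lowest of each group. The log2 fold change with LPS was 1.97 (SE 0.56, edgeR adjusted p = 0.103) without and 2.05 (SE 0.27, adjusted p = 0.00956) with the block in CD18fl/fl cells. In CD18CD11c cKO cells it was 1.32 (SE 0.70, adjusted p = 0.336) and 1.74 (SE 0.52, adjusted p = 0.0579), which missed the threshold by edgeR both ways. Of the 12 alternative settings other than leaving out 1 library, 2 called Arg2 higher in these cells, so its call there depends on the setting. Arg2 overlaps Vti1b on the other strand, which held 4361 to 9874 reads, and the kit does not mark the strand, so reads from the overlap cannot be told apart.

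Arg1 (ENSMUSG00000019987, chromosome 10, 24791119 to 24803382, minus strand) was scarce, with 6 to 668 reads per library. Untreated CD18fl/fl libraries had 1.69, 0.502 and 0.802 CPM, and LPS-treated ones 0.771, 2.04 and 0.280 CPM. Untreated CD18CD11c cKO libraries had 0.391, 22.3 and 1.301 CPM, and LPS-treated ones 0.243, 3.28 and 5.18 CPM. The groups overlapped in all comparisons, and only CD18CD11c cKO untreated replicate 2 went beyond 5.18 CPM. Without that library, the log2 fold change between the untreated genotypes went from 3.06 to -0.20 and that with LPS in CD18CD11c cKO cells from -1.50 to 1.74. No comparison of Arg1 passed the threshold in any setting tried. Eosinophil markers summed to 132 CPM in that library and to 136 CPM in CD18CD11c cKO untreated replicate 1, where Arg1 was at 0.391 CPM, and their part in the value was not tested.

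Acod1 (ENSMUSG00000022126, chromosome 14, 103284413 to 103294009, plus strand) was the sole member past the threshold without the block. Untreated CD18fl/fl libraries had 2.47, 2.08 and 25.2 CPM, and LPS-treated ones 544, 359 and 696 CPM. Untreated CD18CD11c cKO libraries had 4.31, 2.27 and 59.4 CPM, and LPS-treated ones 479, 436 and 560 CPM. As for Nos2, the untreated libraries of replicate 3 were far above those of replicates 1 and 2, while the LPS libraries differed less. The same-numbered folds were therefore uneven, 220, 172 and 27.6 in CD18fl/fl and 111, 192 and 9.42 in CD18CD11c cKO cells.

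In CD18fl/fl cells, the log2 fold change of Acod1 with LPS was 5.76 (SE 1.14, edgeR adjusted p = 0.0442) without and 6.69 (SE 0.74, adjusted p = 0.00649) with the block. The call without the block was lost on leaving out replicate 1 or 2 of either state, with an edgeR adjusted p of 0.128 to 0.151, and under library size scaling (5.46, adjusted p = 0.0546), and was kept without either library of replicate 3. In the fits without replicate 1 or 2 of either state, 0 of all genes tested were called. For CD18CD11c cKO cells the values were 4.43 (SE 1.22, edgeR adjusted p = 0.0924) and 5.89 (SE 0.91, adjusted p = 0.00688).

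Markers of other cells shifted along with LPS. Macrophage markers summed to 2052 to 2509 CPM in untreated and 1304 to 2219 CPM in LPS libraries. By edgeR without the block, 4 of 10 were lower in CD18fl/fl (C1qa, C1qb and C1qc among them) and 3 of 10 in CD18CD11c cKO cells (Csf1r and C1qa among them). Of all genes, 1.83% and 1.76% were lower. Not every marker fell, and Cd14 was at 1.97 in CD18fl/fl and 1.48 in CD18CD11c cKO cells, not past the threshold. With the block Cd14 passed in CD18CD11c cKO cells (1.67, edgeR adjusted p = 0.0313), where 10.2% of all genes were higher. Eosinophil markers summed to 2.27 to 136 CPM before and 0.305 to 9.89 CPM after LPS, and B cell markers to 0.636 to 138 and 1.55 to 41.4 CPM. Dendritic cell markers ranged from 13260 to 28400 CPM before and from 12760 to 33490 CPM after LPS. Their part in the change of the 7 genes was not tested.

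Per kilobase of exon, which allows levels of different genes to be compared, Ass1 was the first of the 7 genes in every group by its mean. Its mean was 357 CPM per kilobase in untreated and 582 in LPS-treated CD18fl/fl cells, and it was above the next gene in all libraries except CD18CD11c cKO LPS replicate 3. After LPS, Acod1 came second in both genotypes at 203 and 188 CPM per kilobase, above the next gene in all 6 LPS libraries. Nos2 (52.8 and 38.7), Slc7a2 (42.8 and 34.5), Gch1 (26.3 and 46.4) and Arg2 (22.6 and 17.1) followed within a narrower band, in which neighbours changed places between libraries. In CD18fl/fl cells Nos2 exceeded Slc7a2 in 2 of 3 libraries and Gch1 exceeded Arg2 in 1 of 3. Arg1 was last after LPS, with 0.699 CPM per kilobase in CD18fl/fl and 1.96 in CD18CD11c cKO cells. Before LPS, Gch1 ranked second and Nos2 last by mean in both genotypes, but not in every library. Arg2 exceeded Gch1 in replicate 1 of both genotypes, and Arg1 exceeded it in CD18CD11c cKO replicate 2 (15.1 against 10.8 CPM per kilobase). Nos2 exceeded Arg1 in replicate 3 of both genotypes. The order of Arg2, Slc7a2 and Acod1 varied between libraries.

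The comparison of the genotypes asked whether loss of CD18 changes these transcripts in resting and in LPS-treated cells. Gch1 was higher in CD18CD11c cKO than in CD18fl/fl cells in all 3 same-numbered pairs of both states, by folds of 1.52, 1.86 and 1.52 untreated and 1.89, 1.88 and 1.57 after LPS. All 3 pairs were higher for 24% of genes in untreated and 23.2% in LPS-treated cells. After LPS the lowest CD18CD11c cKO library (126 CPM) lay above the highest CD18fl/fl library (84.8 CPM), an order seen in 9.51% of genes, whereas the untreated groups overlapped through replicate 3. Between untreated cells, the log2 fold change of Gch1 was 0.73 (SE 0.50, edgeR adjusted p = 0.494) without and 0.75 (SE 0.15, adjusted p = 0.0139) with the block. After LPS it was 0.79 (SE 0.22, edgeR adjusted p = 0.389) and 0.80 (SE 0.15, adjusted p = 0.0201). Replicates 1 and 2 alone gave 0.80 (SE 0.19, edgeR adjusted p = 0.044) and 0.88 (SE 0.19, adjusted p = 0.0418), and Gch1 was then the sole member called, where 7.91% and 3.24% of genes were called higher.

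Among the other members, Acod1 alone was called between untreated genotypes with the block, at 0.82 (SE 0.24, edgeR adjusted p = 0.0489), with folds of 1.74, 1.09 and 2.36. Replicates 1 and 2 alone gave 0.59 (edgeR adjusted p = 0.463), and the block with an offset for exon length gave 0.79 (adjusted p = 0.0612), so that the call of Acod1 was lost in both, while Gch1 kept its call with the offset in untreated (0.74, adjusted p = 0.0198) and LPS-treated cells (0.87, adjusted p = 0.0199). Thus 2 of the 6 members tested were higher with the block in untreated cells and 1 of 7 after LPS, where 12.1% and 6.98% of all genes were called higher. Without the block, 0% of genes were called in either comparison. At an unadjusted p under 0.05 these edgeR fits had 2159 genes in untreated and 1212 in LPS-treated cells, and DESeq2 called 866 and 313 genes. With library size scaling and the block, Gch1 was at 0.36 (adjusted p = 0.0811) untreated and 0.55 (adjusted p = 0.0385) after LPS, and Acod1 untreated at 0.44 (adjusted p = 0.238) by edgeR. Library size scaling with the block moved the median of all genes tested to -0.46 in the untreated and -0.34 in the LPS comparison, and in relation to it both genes stayed higher.

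Nos2 was lower in CD18CD11c cKO cells after LPS in all 3 pairs, with folds of 0.669, 0.656 and 0.774. Its log2 fold change was -0.47 (SE 0.76, edgeR adjusted p = 0.888) without and -0.55 (SE 0.14, adjusted p = 0.0518) with the block, so it did not pass, and the genotypes overlapped because replicate 3 of either exceeded the other libraries. Of the 12 alternative settings other than leaving out 1 library, 2 called it lower. Among them was library size scaling with the block (-0.80, edgeR adjusted p = 0.0158). With an offset for exon length and the block it was -0.38 (adjusted p = 0.182) by edgeR. Every same-numbered pair was lower for 26.2% of genes. Untreated Nos2 did not pass the filter on low counts, with 190 reads in replicate 3 of both genotypes. Slc7a2, Ass1 and Arg2 had log2 fold changes between -0.34 and 0.14 with the block in both states, and an edgeR adjusted p of 0.314 or more.

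**Figure D2:**
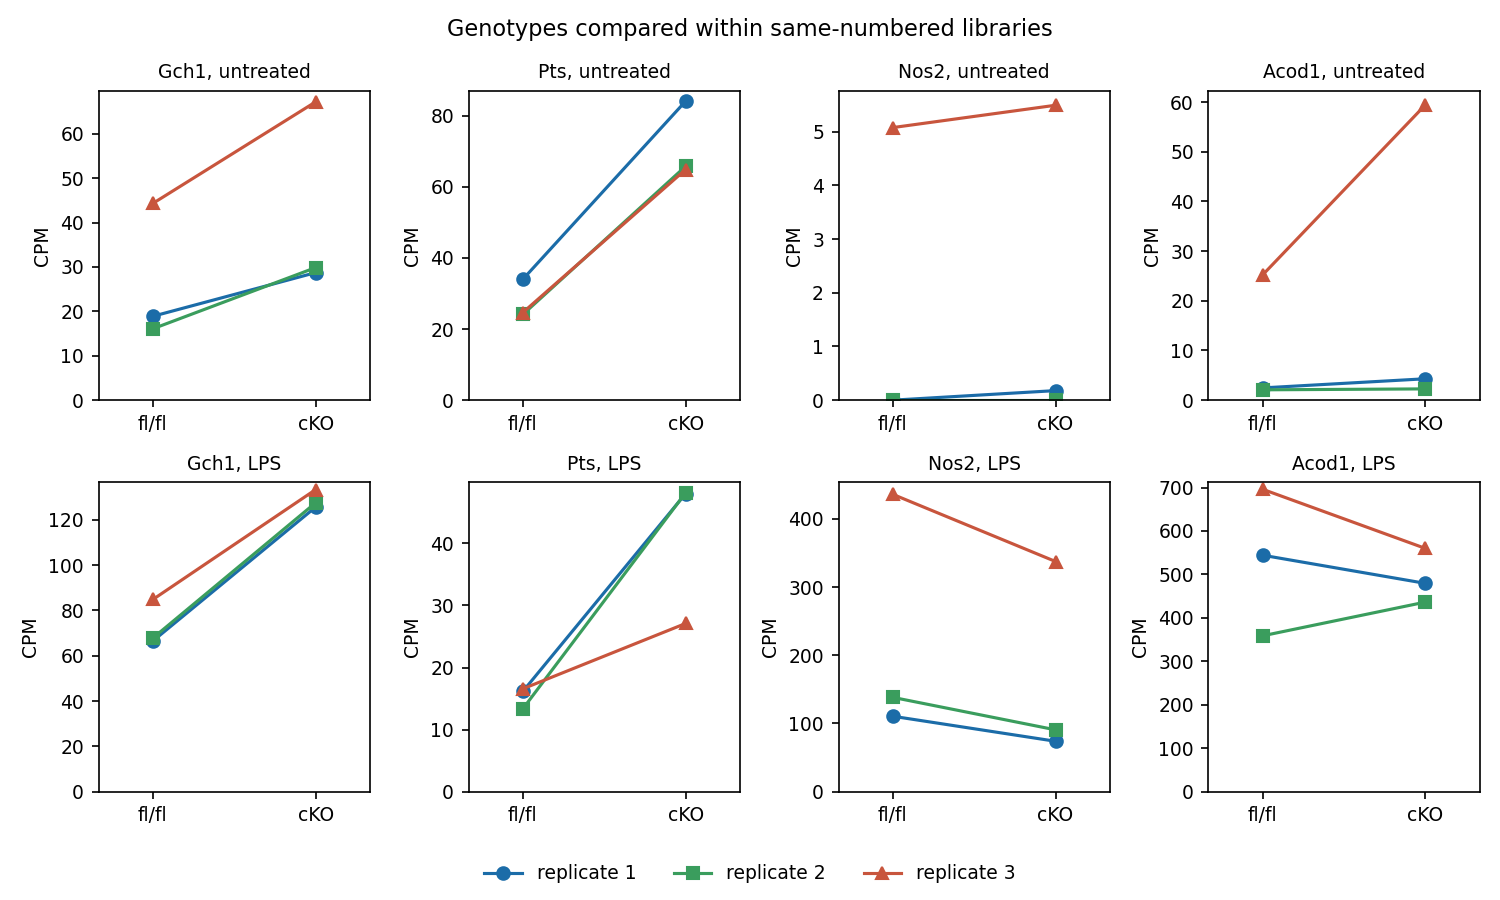
CPM of Gch1, Pts, Nos2 and Acod1 in CD18fl/fl and CD18CD11c cKO (cKO) libraries, untreated in the upper and LPS-treated in the lower row, with lines joining same-numbered libraries. The Gch1 and Pts lines all go up toward CD18CD11c cKO, the 3 Nos2 lines after LPS go down, and those of Acod1 after LPS do not share a direction.

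The interaction of genotype and LPS asks whether the response itself differed. No member passed, with an edgeR adjusted p of 0.9999 without and 1 with the block, and 0% of the 13752 genes tested were called by either fit. An unadjusted p under 0.05 was reached by 97 genes when the replicate number was ignored and by 272 when it was blocked, and DESeq2 called 0 and 2 genes. With the block, the difference in the log2 response, CD18CD11c cKO minus CD18fl/fl, was -0.90 (SE 1.26) for Nos2, -0.91 (SE 0.98) for Acod1 and 0.16 (SE 0.37) for Gch1. These errors leave room for sizeable differences in the response of Nos2 and Acod1 in either direction.

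Genes of tetrahydrobiopterin synthesis and recycling were compared as a list of 8 that includes Gch1. The list also holds Gchfr, whose product regulates GTP cyclohydrolase and does not itself make or recycle the cofactor. Gchfr was at 3.68 (SE 1.77, edgeR adjusted p = 0.174) between untreated genotypes with the block and was not called. In untreated cells all 8 had a positive log2 fold change in CD18CD11c cKO, with a median of 1.07 against -0.07 for all genes tested, and 5 were called higher with the block (12.1% of all genes) and none without it. Pts, whose product follows GTP cyclohydrolase in the pathway, had 34.0, 24.1 and 24.6 CPM in CD18fl/fl and 84.1, 65.8 and 64.8 CPM in CD18CD11c cKO cells. Every CD18CD11c cKO library was above every CD18fl/fl library, an order seen in 11.7% of genes. The log2 fold change was 1.43 (SE 0.23, edgeR adjusted p = 0.0866) without and 1.44 (SE 0.14, adjusted p = 0.00298) with the block.

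After LPS, Pts had 16.1, 13.4 and 16.6 CPM in CD18fl/fl and 48.0, 48.1 and 27.1 CPM in CD18CD11c cKO cells, again with no overlap. Its log2 fold change was 1.39 (SE 0.29, edgeR adjusted p = 0.286) without and 1.35 (SE 0.24, adjusted p = 0.0179) with the block. In this state 3 of the 7 genes tested were called higher with the block, Gch1, Pts and Pcbd2, against 6.98% of all genes. Qdpr (0.81, adjusted p = 0.0201) and Pcbd2 (0.75, adjusted p = 0.0299) were among the calls in untreated cells by edgeR with the block. With library size scaling and the block, 1 of 8 was called in untreated cells (Pts, 1.05, adjusted p = 0.00843) and 2 of 7 after LPS (Pts and Gch1) by edgeR, where 701 of 12876 and 590 of 12441 genes were called higher. With the block and the offset for exon length, 3 of 8 and 2 of 7 were called, against 1021 of 12236 and 625 of 11818 genes.

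LPS moved this list in both directions. Gch1 was higher in both genotypes with the block, whereas Pts (-0.89, adjusted p = 0.0237) and Qdpr (-0.82, adjusted p = 0.0172) were lower in CD18CD11c cKO cells by edgeR with the block (9.93% of all genes). In CD18fl/fl cells Pts was at -0.83 (edgeR adjusted p = 0.0604) and Qdpr, which encodes the recycling enzyme dihydropteridine reductase, at -0.87 (adjusted p = 0.0507), which missed the threshold, and the interaction passed for neither.

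Of the other genes of nitric oxide synthesis, sensing and removal, none passed with LPS in either genotype, with or without the block, among the 5 tested beside Nos2. Nos1 and Nos3, the neuronal and endothelial synthases, did not pass the filter, with 0.0647 CPM or less for Nos1 and 0.610 CPM or less for Nos3 in any library. Adh5, whose product breaks down S-nitrosoglutathione, was higher in untreated CD18CD11c cKO cells with the block (0.67, edgeR adjusted p = 0.018). Among the genes of the urea cycle and citrulline recycling, Arg2 in CD18fl/fl cells was the sole call with the block in any of the 4 comparisons. Asl, which completes the rebuilding of arginine after Ass1, had 36.8 to 70.9 CPM in untreated and 32.1 to 86.1 CPM in LPS-treated CD18fl/fl cells. Otc and Cps1, which begin the hepatic cycle, had 0.324 CPM or less in every library.

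**Figure D3:**
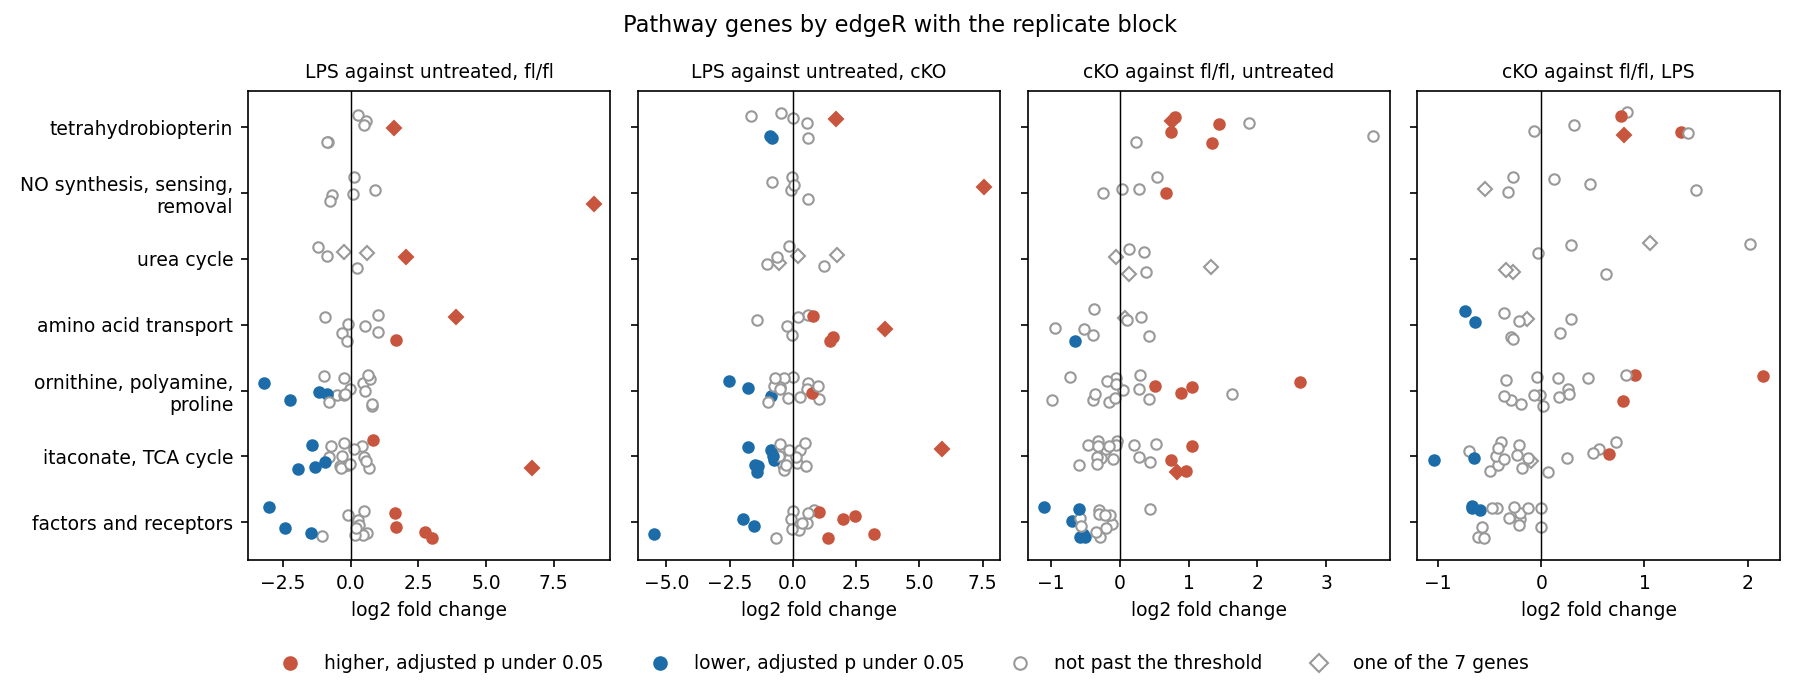
Log2 fold changes by edgeR with the replicate block for the tested genes of 7 lists in 4 comparisons, each symbol 1 gene, coloured where the adjusted p was under 0.05, with diamonds for the 7 genes described and cKO for CD18CD11c cKO. With LPS, Nos2, Slc7a2 and Acod1 lie farthest to the right, and between untreated genotypes the 5 coloured tetrahydrobiopterin genes all lie to the right.

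Among amino acid transporters, Slc7a11, which takes up cystine, was higher with LPS without the block in CD18fl/fl (1.62, edgeR adjusted p = 0.049) and CD18CD11c cKO cells (1.49, adjusted p = 0.0363). It was 1 of the 9 tested in each, where 2.06% and 2.23% of all genes were called higher. With the block, Slc7a2 and Slc7a11 were called higher in CD18fl/fl cells (6.33% of all genes). In CD18CD11c cKO cells, Slc7a2, Slc7a11, Slc7a1 (1.59, edgeR adjusted p = 0.0456) and Slc3a2 (0.81, adjusted p = 0.0291) were called higher (10.2% of all genes). Slc7a1 encodes CAT1, the other main arginine carrier, and amounted to 1.53 to 13.3 CPM before and 6.51 to 11.6 CPM after LPS. Between the genotypes with the block, Slc7a5 was lower in untreated CD18CD11c cKO cells (-0.64, edgeR adjusted p = 0.0372), as were 8.16% of all genes. After LPS, Slc7a11 (-0.64, edgeR adjusted p = 0.0375) and Slc3a2 (-0.74, adjusted p = 0.0244) were lower, where 3.16% of all genes were. None was called between the genotypes in replicates 1 and 2 alone.

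The list of ornithine, polyamine and proline genes, which also holds the creatine genes Gatm and Gamt, did not follow Arg2. Without the block, 0 of 17 tested passed with LPS in either genotype. With it, Gamt (-3.20, adjusted p = 0.0295), Srm (-2.24, adjusted p = 0.00688), Paox (-1.18, adjusted p = 0.0391) and Sms (-0.89, adjusted p = 0.0424) were lower in CD18fl/fl cells by edgeR, where 6.43% of all genes were. Srm and Sms encode the synthases of spermidine and spermine, and Gamt completes creatine. In CD18CD11c cKO cells, Gamt, Srm and Sms were lower and Smox, spermine oxidase, was higher. Between the genotypes, Gatm, which starts creatine synthesis by moving the amidino group of arginine to glycine, stood out. Its values were 9.05, 6.09 and 11.3 CPM in CD18fl/fl and 50.8, 72.2 and 35.0 CPM in CD18CD11c cKO untreated cells, without overlap, and its log2 fold change was 2.64 (SE 0.36, edgeR adjusted p = 0.0861) without and 2.61 (SE 0.33, adjusted p = 0.00375) with the block. After LPS it was 2.15 (adjusted p = 0.00641) with the block by edgeR, with 5.20, 4.72 and 16.4 against 26.9, 15.0 and 89.7 CPM. Sms, Sat1 and, in untreated cells, Oaz1 were higher as well with the block (log2 fold changes of 0.52 to 1.06).

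In the list around itaconate, which holds genes of the TCA cycle and others related to it, several genes went down with LPS where Acod1 went up. Idh1 (-1.43, edgeR adjusted p = 0.0365) and Idh2 (-1.33, adjusted p = 0.0458), the NADP-dependent isocitrate dehydrogenases, were lower in CD18fl/fl cells without the block (1.83% of all genes). With it, Idh1, Idh2, Idh3a and Suclg2 were lower in both genotypes, at log2 fold changes of -0.94 to -1.97 in CD18fl/fl and -1.39 to -1.78 in CD18CD11c cKO cells. Aco1, Idh3g and Suclg1 were called lower in CD18CD11c cKO cells, and Slc25a1, the mitochondrial citrate carrier, higher in CD18fl/fl cells (0.82, edgeR adjusted p = 0.0498), while the interaction passed for none of them. Of the 20 genes, 13 had a negative log2 fold change in CD18fl/fl cells, with a median of -0.24 with the block. The genes of succinate dehydrogenase, the enzyme that itaconate inhibits, did not pass with LPS. Sdhb was higher in CD18CD11c cKO cells in both states with the block (0.96, adjusted p = 0.00661, and 0.65, adjusted p = 0.0383, by edgeR), as were Idh1 and Idh3a in untreated cells. Slc25a1 and Slc25a10 were lower in CD18CD11c cKO cells after LPS with the block (-0.65 and -1.04).

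Of 17 transcription factors and receptors known to act on Nos2, Acod1 or Arg1, Stat2 was higher and Klf4 lower with LPS without the block in both genotypes. Stat2 rose by 2.96 (edgeR adjusted p = 0.0127) in CD18fl/fl and 3.14 (adjusted p = 0.0131) in CD18CD11c cKO cells, from a range of 17.7 to 29.1 CPM to one of 181 to 216 CPM in the former. Klf4 changed by -2.45 (adjusted p = 0.0144) and -1.95 (adjusted p = 0.0374) by edgeR, where 1.83% and 1.76% of all genes were lower. With the block, Irf1 and Irf8 were also higher and Pparg and Ifngr1 lower in both genotypes. Tlr4, the LPS receptor, and Stat6, which carries the IL-4 signal to Arg1, were not called with LPS.

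Between the genotypes, 16 of these 17 had a negative log2 fold change in untreated CD18CD11c cKO cells, with a median of -0.34 against -0.07 for all genes with the block. Cebpb, Rela, Il4ra, Stat6, Stat3 and Irf8 were called lower with the block (-1.10 to -0.50, 8.16% of all genes), and after LPS Hif1a and Stat6 were among the calls (-0.67 to -0.59, 3.16%). None was called without the block. In replicates 1 and 2 alone 3 were lower untreated and 1 after LPS (2.67% and 0.977% of all genes), and with the offset for exon length 2 were lower untreated and none after LPS. Acod1 and Gch1 had positive log2 fold changes in untreated cells, and Nos2 was not tested there.

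Across the 12 libraries, log2 CPM of Nos2, Acod1, Slc7a2 and Gch1 went together. Pearson's r was 0.991 for Nos2 with Acod1, 0.947 for Nos2 with Slc7a2, 0.917 for Nos2 with Gch1 and 0.931 for Acod1 with Gch1. These libraries share the LPS contrast and the difference of replicate 3, both of which enter r. Among 13751 other genes, Acod1 was the one most like Nos2, followed by Tagln2 (0.975) and Sod2 (0.969), and Acod1 was in turn most like Nos2, then Clec4e (0.983) and Layn (0.971). Slc7a2 was most like Cd38 (0.985), Clmp (0.977) and Adhfe1 (0.958), and Gch1 most like Msantd3 (0.977), Zfp993 (0.973) and Cox17 (0.972).

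The arginases and Ass1 had other neighbours. Arg2 and Ass1 correlated with each other at 0.631 and with Nos2 at 0.414 and 0.117. The genes most like Arg2 were Ikbkb (0.973), Skil (0.972) and Zhx2 (0.967), and those most like Ass1 were Wdr45b (0.970), Emc3 (0.967) and Mtif3 (0.966). No gene came as close to Arg1, whose nearest were Pstpip1 (0.844), Pgbd1 (0.830) and Gm44973 (0.816), and its r with the other 6 members lay between -0.35 and 0.00.

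Reads assigned to introns, which come mostly from RNA not yet spliced, were also counted for each gene. For Acod1 after LPS they made up 4.72%, 4.65% and 4.53% of reads in CD18fl/fl and 8.55% (95% exact binomial interval 8.06 to 9.07), 12.03% (11.4 to 12.7) and 4.38% (4.08 to 4.69) in CD18CD11c cKO libraries. The share was higher in CD18CD11c cKO replicates 1 and 2 and not in replicate 3, so the groups overlapped. For Nos2 it stayed between 2.04% and 2.94% in the same 6 libraries, and for all genes together between 2.39% and 4.54%, with 3.06% and 4.004% in the 2 libraries where Acod1 was high. The intervals cover counting error only, since reads carry no molecular identifiers.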

How the data were processed

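RNA from MHCII-positive BMDCs was sequenced in 12 libraries, 3 for each of 4 groups. The authors deposited, per library, whole-number read counts per gene (exon, intron, unique and total gene reads) made by mapping trimmed reads in CLC Genomics Workbench. The build is GRCm39 in the study's methods and by the coordinates of the tables, while the submitters' processing notes name GRCm38. The total gene reads were used, in which reads with several matches are also assigned.

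From these counts, genes were kept with filterByExpr (edgeR 4.0.16 in R 4.3.3, minimum count 10), libraries were scaled by TMM, and each comparison of 2 groups was tested over its 6 libraries by edgeR's quasi-likelihood test, calling genes at a Benjamini-Hochberg adjusted p under 0.05. The interaction used all 12 libraries. The functions were tested on simulated counts. CPM use TMM-scaled library sizes, 3 reads served as floor, and introns or strand were not corrected for. Depth was 29689149 to 34037178 reads, and intervals cover counting error only, since PCR copies were not marked. Nothing says that same-numbered libraries share an animal or a day. Their deviations from the group means correlated at 0.265 to 0.716 in all 12 pairs. Those of replicate 1 with replicate 2 of the other group correlated at 0.154 to 0.334, and those of replicate 3 with either at -0.571 to -0.321. Fits with the replicate number as a block stand beside the others. P-values measure the spread between these libraries, which may be technical.

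Alternatives were library size scaling, RLE size factors, unique reads, no filter, DESeq2 1.42.0, all 12 libraries in 1 fit, leaving out each library, and the block with an offset for exon length (lowess span 0.3). Replicates 1 and 2 alone, the block over all 12 libraries, DESeq2 with the block and library size scaling with the block were added after seeing the data. The 7 genes and the gene lists were chosen with earlier results of these data known. Genes named beside the 7 are, by rule, up to 3 of each list with the largest log2 fold change among those called with LPS in CD18fl/fl cells, those called between genotypes, and the 3 most correlated with each of the 7; other members of the lists were named after their values were seen. No sequence of Nos2, Arg1, Arg2 or Slc7a2 was used. Promoter sequences are from RefSeq entries of GRCm38.p6, matched to GRCm39. The values of some genes of the lists are not reported here.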

Additional observations from a re-analysis of the deposited data

How the results depend on the processing

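The number of genes past the threshold with LPS was 496 in CD18fl/fl and 506 in CD18CD11c cKO cells in the fits given first, and 0 between untreated genotypes, 0 between LPS-treated genotypes and 0 for the interaction. In the same order of the first 4, it was 1627, 2560, 2606 and 1262 with the replicate block, 1704, 2627, 1565 and 873 with the block and the length offset, 1976, 1681, 866 and 313 with DESeq2, and 1068, 983, 19 and 45 with all 12 libraries in 1 fit. Without a filter it was 805 with LPS in CD18CD11c cKO cells and 1 between LPS-treated genotypes. Among alternatives added after seeing the data it was 6140, 2049, 1383 and 523 for replicates 1 and 2 alone, 3365, 3016, 1115 and 623 for the block over all 12 libraries, 3269, 3539, 3308 and 1993 for DESeq2 with the block (and 2 for the interaction), and 1621, 2748, 4583 and 2642 for library size scaling with the block. Leaving out 1 library gave 0 to 3268, 0 to 1033, 0 to 0 and 0 to 1, and 0 to 0 for the interaction. The cause was not tested.

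The analysis with the replicate number as a block gave the calls stated beside each result, and it changed no other call of the 7 genes. The log2 fold changes that turned direction were not past the threshold in the fits given first. Arg1 with LPS in CD18fl/fl cells was -0.26 with the block, -0.31 with the length offset too, -0.36 with library size scaling, -0.69 with the block over 12 libraries, -0.25 with DESeq2 and the block and -0.57 with library size scaling and the block. Between untreated genotypes, Arg2 was -0.048, -0.43, -0.18, -0.057 and -0.45 (block, block with length offset, library size scaling, DESeq2 with block, library size scaling with block), Ass1 was -0.14, -0.22 and -0.25 (block with length offset, library size scaling, the latter with block), and Slc7a2 was -0.0087 by RLE, -0.0093 by DESeq2, -0.34 with library size scaling, -0.062 with 12 libraries and -0.31 with library size scaling and the block. Between LPS-treated genotypes, Slc7a2 was 0.026 with the block and length offset and 0.16 in replicates 1 and 2, and Acod1 0.011 with the block over 12 libraries. The interaction of Arg1 was 0.21 with the block, 0.22 with the length offset or DESeq2 and the block, and 0.25 with library size scaling and the block.

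Leaving out 1 library turned the following, given as lowest to highest. With LPS, Arg1 went from -0.92 to 0.66 in CD18fl/fl and from -2.29 to 1.74 in CD18CD11c cKO cells, and Ass1 from -0.24 to 0.77 in the latter. Between untreated genotypes the ranges were -1.52 to 3.32 for Acod1, -0.20 to 3.68 for Arg1, -0.31 to 0.82 for Arg2, -0.16 to 0.36 for Ass1 and -1.23 to 1.78 for Slc7a2. After LPS they were -0.34 to 0.086 for Acod1, -0.81 to 0.23 for Ass1, -1.53 to 0.41 for Nos2 and -0.83 to 0.62 for Slc7a2. For the interaction they were -3.47 to 1.48 for Acod1, -2.22 to 1.73 for Arg1, -0.90 to 0.15 for Ass1, -0.53 to 0.67 for Gch1, -9.39 to 3.78 for Nos2 and -2.10 to 1.01 for Slc7a2. With 3 libraries a group, 1 of which stood apart, the data do not settle differences between the genotypes of the size seen for Nos2, and at 0 to 5 reads in 4 untreated libraries the resting level of Nos2 is not resolved.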
